A study of Mus musculus with 16 samples.

Results

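Granzymes, perforin and their granule partners were followed in regulatory T cells (Treg), through 8 genes: the granule proteases Gzma, Gzmb, Gzmc and Gzmk, the pore-forming perforin gene Prf1, the death ligand gene Fasl, the granzyme inhibitor gene Serpinb9 and the granule proteoglycan gene Srgn. They were chosen by name, with earlier results of these data known, and each was read from a probe set annotated to that symbol alone. All 8 had exactly 1 such probe set, and they are 8 of 19938 genes measured. Treg came from wild type female C57BL/6 mice aged 8 to 12 weeks, from pooled mesenteric, para-aortic, inguinal, axillary, brachial and cervical lymph nodes, so a sample mixes several sites. They were sorted by surface CD103, an integrin chain, and ICOS, a costimulatory receptor. The 4 subsets are called double-negative (CD103neg ICOSneg), CD103 single-positive (CD103pos ICOSneg), ICOS single-positive (CD103neg ICOSpos) and double-positive (CD103pos ICOSpos). RNA was taken straight from the sort (fresh) or after 3 days in a suppression assay (activated). The assay held 200000 Treg of 1 subset, 1000000 congenic Ly5.1 naive CD4 T cells, 2000000 irradiated Rag2-/- splenocytes and soluble anti-CD3 at 0.5 ug/ml. The Treg were then taken out again by sorting Ly5.1neg CD4pos CD25pos cells. The subset names of activated cells therefore give the sort before the assay. Splenocytes of Rag2-/- mice lack mature T and B cells but keep natural killer (NK) and myeloid cells. The labels do not say how many mice a sample pooled. Each of the 8 groups has 2 arrays, labelled biological replicates 1 and 2, which makes 16 arrays. The labels do not tie the replicate numbers to the 2 independent experiments of the design text.

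Cytotoxic lymphocytes store granzymes in secretory granules, bound to the proteoglycan serglycin, the product of Srgn. On contact with a target cell perforin opens a path into it, and granzymes cleave proteins inside it. Granzyme B cleaves after aspartate and can start apoptosis, granzyme A cleaves after basic residues, and the serpin encoded by Serpinb9 blocks granzyme B and protects the cell that makes it. Fas ligand kills by another route, through the receptor Fas. Activated Treg are known to make granzyme B, and granzyme- and perforin-dependent killing has been described as a way in which they act on other cells.

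The values are log2 intensities of 1 probe set, so a difference of 1 is 2-fold, and they include background. A difference of a gene that is dim in 1 group can therefore be larger in the cells than on the arrays. Levels were compared between arrays for 1 gene at a time, never between genes. A gene is called where limma, a linear model fitted to all 16 arrays with 8 group means, gave a Benjamini-Hochberg adjusted p below 0.05 over all 19938 genes of a comparison. All tests were two-sided. The fit held no term for the replicate number. With such a term all 19 calls of the 8 genes stayed and 6 were added, which are named in the closing section. Array medians lay between 6.26 and 6.48. Arrays have no counting depth, and 2 arrays per group limit the precision.

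The labelled cell type was checked through Foxp3, the gene of the transcription factor that defines Treg. It was 8.53 on the array labelled activated CD103neg ICOSpos replicate 2 and 12.64 on replicate 1 of that group, while the other 15 arrays ranged from 11.69 to 12.84. Each of 11 Treg markers was lower there than in replicate 1, by over 1, with a mean of 9.01 against 11.44. The mean of 3 CD4 T cell markers was 12.39 on both arrays. It is called the low-Foxp3 array here. Its values are named where they stand out, and tests are given without it where that changes a call.

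Promoters are shown first for the 4 genes that rose on activation, Gzmb, Gzma, Gzmc and Serpinb9, because they rose in the same comparison. Each run is the 250 bases before the start of the gene, 5′ to 3′ along the gene's strand, from RefSeq on GRCm38.p6. Capitals mark matches to 6 short motifs searched on both strands. These were TGANTCA (the AP-1 site), ACGTCA (part of the CRE, the cAMP response element), TGTGGT (a RUNX core), GGTGTGA (a T-box site), TTCNNNGAA (a STAT site) and GGAAAA (an NFAT core). The windows are chr14:56262335-56262584 for Gzmb, chr13:113100982-113101231 for Gzma and chr14:56234658-56234907 for Gzmc, all on the minus strand, and chr13:33004291-33004540 on the plus strand for Serpinb9.
Gzmb: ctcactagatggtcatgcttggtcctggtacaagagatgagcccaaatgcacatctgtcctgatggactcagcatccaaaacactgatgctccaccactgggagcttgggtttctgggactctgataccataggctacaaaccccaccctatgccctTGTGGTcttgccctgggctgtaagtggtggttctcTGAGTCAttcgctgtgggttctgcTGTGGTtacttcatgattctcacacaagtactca
Gzma: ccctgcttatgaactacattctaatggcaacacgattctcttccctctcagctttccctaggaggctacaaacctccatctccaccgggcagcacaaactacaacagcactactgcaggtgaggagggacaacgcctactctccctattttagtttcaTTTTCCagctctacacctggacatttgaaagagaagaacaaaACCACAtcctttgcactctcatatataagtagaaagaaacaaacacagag
Gzmc: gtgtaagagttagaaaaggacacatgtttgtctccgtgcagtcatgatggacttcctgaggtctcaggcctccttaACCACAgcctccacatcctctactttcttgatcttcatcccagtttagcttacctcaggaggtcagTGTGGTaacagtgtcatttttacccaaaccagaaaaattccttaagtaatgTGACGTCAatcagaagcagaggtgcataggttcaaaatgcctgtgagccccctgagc
Serpinb9: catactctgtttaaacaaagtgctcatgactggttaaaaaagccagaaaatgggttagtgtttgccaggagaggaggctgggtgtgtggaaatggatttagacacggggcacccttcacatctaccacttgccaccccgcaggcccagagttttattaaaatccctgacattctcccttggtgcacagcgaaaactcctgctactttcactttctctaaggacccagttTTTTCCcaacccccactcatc

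The Gzmb window holds TGAGTCA at bases 58 to 52 before the start and the RUNX core TGTGGT at bases 93 to 88 and 34 to 29. The Gzmc window holds TGACGTCA, where the CRE site, of which ACGTCA is a part, is read on both strands and overlaps itself, and a RUNX core on each strand. The Gzma window holds a RUNX core, read as ACCACA at bases 50 to 45 before the start, and an NFAT core, read as TTTTCC. The Serpinb9 window holds only an NFAT core, again as TTTTCC, at bases 21 to 16. No motif is shared by all 4 windows. All 8 genes have a window, 9 in all since Srgn has 2 starts. The RUNX core lies in 5 of the 9 windows against 14% of 32851 promoter windows, the NFAT core in 4 against 20.4%, the CRE part in 3 against 6.47%, AP-1 in 1 against 6.75%, the T-box site in 1 (Gzmk) against 3.33% and the STAT site in 0 against 7.02%. These are matches of letters, not evidence of binding. Gzmb and Gzmc lie side by side on chromosome 14, with 0 protein-coding genes between them in RefSeq, and so do Gzma and Gzmk on chromosome 13.

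Gzmb, the gene of granzyme B, was higher in the ICOS-positive than in the ICOS-negative fresh cells. On the fresh arrays, replicate 1 and then replicate 2, it was 8.97 and 5.21 in double-negative, 6.22 and 6.20 in CD103 single-positive, 9.03 and 9.21 in ICOS single-positive and 11.29 and 11.48 in double-positive cells. On the activated arrays it was 10.24 and 12.81 in double-negative, 11.84 and 12.54 in CD103 single-positive, 12.23 and 10.58 in ICOS single-positive and 12.39 and 12.70 in double-positive cells, 10.58 being the low-Foxp3 array. Every fresh ICOS-positive array lay above every fresh ICOS-negative one, although double-negative replicate 1 came close. After activation the subsets overlapped, and 6 of 8 activated arrays lay above the highest fresh array.

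Gzma, the gene of granzyme A, was low in nearly all fresh samples and high in all activated ones. The fresh values were 7.91 and 5.16 in double-negative, 5.31 and 5.16 in CD103 single-positive, 5.55 and 5.12 in ICOS single-positive and 5.29 and 5.36 in double-positive cells. The activated values were 7.52 and 10.85 in double-negative, 10.06 and 10.60 in CD103 single-positive, 8.72 and 10.19 in ICOS single-positive and 9.44 and 9.92 in double-positive cells. The states overlapped only through double-negative replicate 1, which was the highest fresh array and the lowest activated one.

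Gzmc, the neighbour of Gzmb, encodes a granzyme that is known from strongly stimulated cytotoxic cells. Its fresh values were 6.07 and 5.86 in double-negative, 5.75 and 6.00 in CD103 single-positive, 5.96 and 6.24 in ICOS single-positive and 6.84 and 7.24 in double-positive cells. Its activated values were 6.97 and 7.26 in double-negative, 5.91 and 6.66 in CD103 single-positive, 7.72 and 6.23 in ICOS single-positive and 8.00 and 7.22 in double-positive cells. Fresh double-positive arrays were above all other fresh arrays, and 3 of 8 activated arrays exceeded them.

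Gzmk, the neighbour of Gzma, encodes a tryptase-like granzyme. It stayed dim throughout, below every array's median. The fresh values were 4.96 and 5.12 in double-negative, 5.32 and 4.89 in CD103 single-positive, 5.94 and 5.81 in ICOS single-positive and 5.73 and 5.47 in double-positive cells. The activated values were 4.91 and 4.85 in double-negative, 4.99 and 4.96 in CD103 single-positive, 5.19 and 5.13 in ICOS single-positive and 4.98 and 5.19 in double-positive cells. As with Gzmb, the fresh ICOS-positive arrays lay above all fresh ICOS-negative ones, but here every activated array lay below them too.

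Prf1, the perforin gene, did not follow Gzmb on the fresh arrays. Its fresh values were 7.91 and 8.03 in double-negative, 7.24 and 7.14 in CD103 single-positive, 6.20 and 6.59 in ICOS single-positive and 7.32 and 7.23 in double-positive cells. Its activated values were 6.50 and 9.46 in double-negative, 6.91 and 8.47 in CD103 single-positive, 7.83 and 8.94 in ICOS single-positive and 7.40 and 7.74 in double-positive cells. Among fresh arrays double-negative cells were highest and ICOS single-positive cells lowest, and replicates differed by 0.09 to 0.39. Activated replicates differed by 0.34 in double-positive cells and by 1.11 to 2.96 in the other subsets, and replicate 2 was the higher one in each activated pair.

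Fasl, the gene of Fas ligand, was low and even on most arrays. The fresh values were 6.27 and 6.50 in double-negative, 6.24 and 6.25 in CD103 single-positive, 6.51 and 6.70 in ICOS single-positive and 6.06 and 6.28 in double-positive cells. The activated values were 6.89 and 7.57 in double-negative, 6.21 and 6.52 in CD103 single-positive, 6.41 and 8.01 in ICOS single-positive and 6.22 and 6.39 in double-positive cells. The highest value of all 16 was the low-Foxp3 array, followed by both activated double-negative arrays.

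Serpinb9, the gene of the granzyme B inhibitor, was higher on both activated arrays than on both fresh arrays of each subset. The fresh values were 7.48 and 7.54 in double-negative, 7.55 and 8.21 in CD103 single-positive, 7.19 and 7.42 in ICOS single-positive and 6.77 and 7.12 in double-positive cells. The activated values were 9.77 and 9.32 in double-negative, 9.72 and 9.73 in CD103 single-positive, 8.13 and 7.68 in ICOS single-positive and 8.62 and 8.53 in double-positive cells. In both states every ICOS-negative array lay above every ICOS-positive array, the reverse of Gzmb in fresh cells.

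Srgn, the serglycin gene, was bright and nearly level, between 12.90 and 13.55 on all arrays. The fresh values were 12.99 and 12.98 in double-negative, 13.10 and 13.07 in CD103 single-positive, 13.28 and 13.38 in ICOS single-positive and 13.47 and 13.50 in double-positive cells. The activated values were 12.90 and 13.31 in double-negative, 13.29 and 13.24 in CD103 single-positive, 13.54 and 13.22 in ICOS single-positive and 13.34 and 13.55 in double-positive cells. Fresh ICOS-positive arrays lay above the fresh ICOS-negative ones without overlap, and the activated subsets overlapped.

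**Figure D1:**
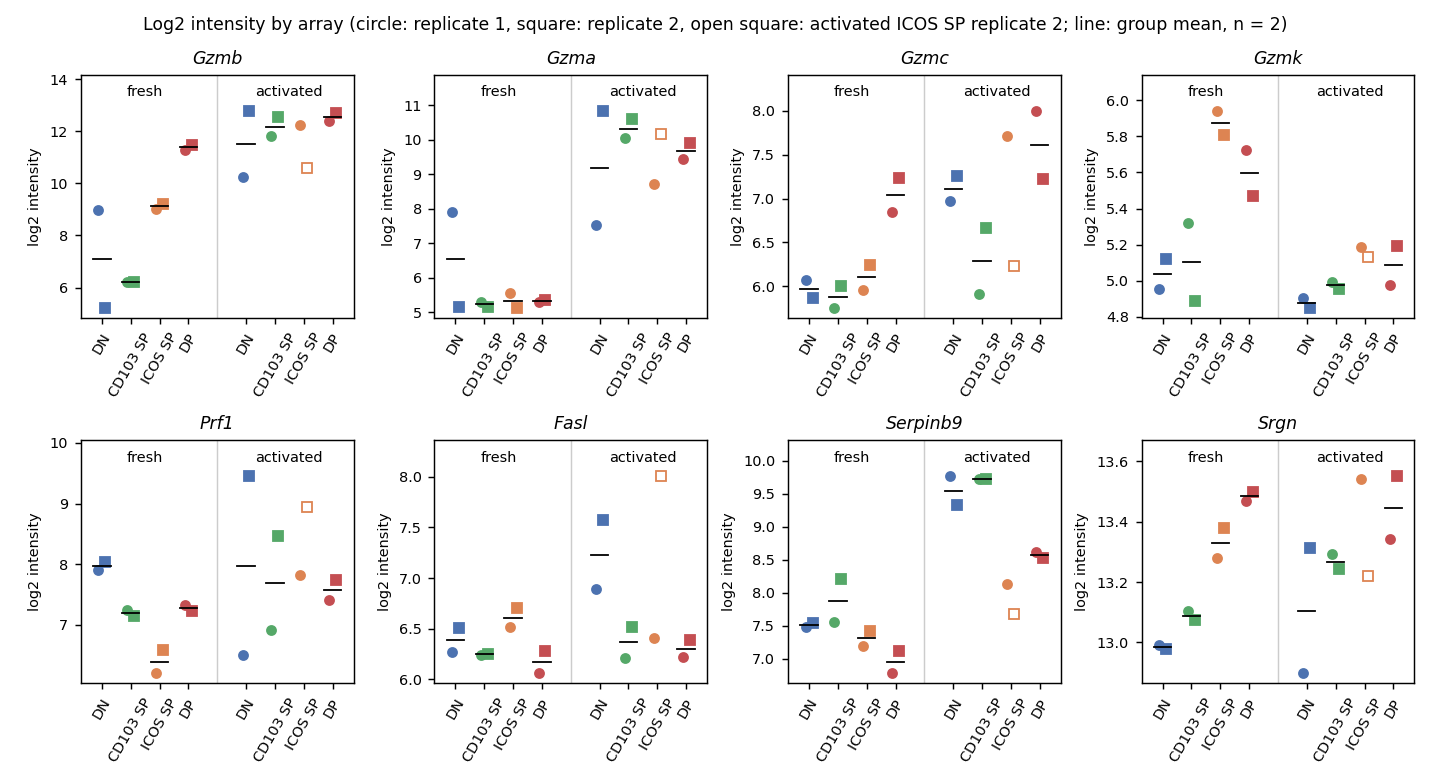
Log2 intensity (vertical axes) of the 8 genes on each of the 16 arrays, grouped along the horizontal axes by state and subset (DN double-negative, SP single-positive, DP double-positive). Circles are replicate 1, squares replicate 2, the open square is the low-Foxp3 array, and lines are means of the n = 2 arrays of a group; Gzmb on fresh arrays spans 5.21 to 11.48, and Gzma on double-negative arrays differs widely between replicates in both states.

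In order of mean level, with activated ICOS single-positive cells read from replicate 1 alone, Gzmb ran from activated double-positive (12.54 ± 0.22, SD, n = 2) through activated ICOS single-positive (12.23) and activated CD103 single-positive (12.19 ± 0.50) to activated double-negative cells (11.52 ± 1.81). Below them came fresh double-positive (11.39 ± 0.13), fresh ICOS single-positive (9.12 ± 0.13), fresh double-negative (7.09 ± 2.66) and fresh CD103 single-positive cells (6.21 ± 0.02). Neighbours in this order overlapped in their arrays except at 3 steps: activated double-positive over activated ICOS single-positive, fresh double-positive over fresh ICOS single-positive, and fresh ICOS single-positive over fresh double-negative. Serpinb9 was ordered differently, from activated CD103 single-positive (9.72 ± 0.01) and activated double-negative (9.55 ± 0.32) down to fresh double-positive cells (6.95 ± 0.25), the fresh subset in which Gzmb was highest. For Gzma the 4 activated groups came first, and the 4 fresh groups overlapped one another.

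The activated samples were set against the fresh ones over the 4 subsets to ask how activation changed the subsets. Gzma, Gzmb, Gzmc and Serpinb9 rose, Gzmk fell, and Prf1, Fasl and Srgn did not pass. That is 5 of 8 genes called, where 31.2% of all genes were called in either direction. The median difference of the 8 was 0.72, against -0.003 over all genes. On the log2 scale Gzma rose by 4.06, or 16.6-fold (SE 0.50, adjusted p = 8.38e-05) and Gzmb 11-fold (3.46, SE 0.53, adjusted p = 0.000387). Serpinb9 rose 2.88-fold (1.53, SE 0.11, adjusted p = 2.46e-06) and Gzmc 1.68-fold (0.75, SE 0.21, adjusted p = 0.0182). Gzmk, dim in both states, was 1.30-fold lower (-0.38, SE 0.07, adjusted p = 0.00195). The same 5 genes were called without the low-Foxp3 array, where 30.7% of all genes were, and there Gzma rose by 3.87 and Gzmb by 3.67.

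Prf1 was not called on activation, and the data leave its size wide (log2 difference 0.70, 95% interval -0.15 to 1.54, adjusted p = 0.215). The replicate 1 arrays gave -0.01 and the replicate 2 arrays 1.40. Without activated double-negative replicate 1 the difference was 1.07 and passed (adjusted p = 0.00633), so 1 array decided that call. Fasl had a difference of 0.42 (interval -0.01 to 0.86, adjusted p = 0.14), which became 0.62 (adjusted p = 0.00133) without activated ICOS single-positive replicate 1 and 0.22 (adjusted p = 0.164) without replicate 2, the low-Foxp3 array. Srgn differed by 0.08 (interval -0.08 to 0.24, adjusted p = 0.487), and both bounds lie near 0.

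By subset, Gzmb rose most where it had been lowest. In CD103 single-positive cells it rose 63.2-fold (log2 difference 5.98, SE 1.05, adjusted p = 0.00203), Gzma rose 34.1-fold (5.09, adjusted p = 0.00387) and Serpinb9 3.59-fold (1.84, SE 0.23, adjusted p = 0.000208). These are 3 of 8 genes, where 20.2% of all genes were called. In double-positive cells, where fresh Gzmb was already 11.39, its difference was 1.15 (interval -1.17 to 3.48, adjusted p = 0.548) and did not pass. That fit includes the wide Gzmb pairs of other groups in its spread. Fitted to the double-positive arrays alone, the Gzmb difference passed (adjusted p = 0.0159), with 1.09 in the replicate 1 and 1.22 in the replicate 2 arrays. There Gzma rose 20.5-fold (4.36, adjusted p = 0.0146), Serpinb9 rose 3.08-fold (1.62, SE 0.23, adjusted p = 0.00111) and Gzmk was 1.43-fold lower (-0.51, SE 0.15, adjusted p = 0.0402). These are again 3 of 8, where 14.1% of all genes were called. The Gzma call was lost without fresh double-positive replicate 1 (adjusted p = 0.0686), fresh replicate 2 (0.0729) or activated replicate 2 (0.0919), and the Gzmk call was lost in 10 of 16 fits that left out 1 array. The Gzmk difference did not pass in the fit to the double-positive arrays alone either (adjusted p = 0.109). Whether the rise of Gzmb itself differed between subsets is asked below through the ICOS difference.

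In double-negative cells Gzmb rose 21.7-fold (log2 difference 4.44, SE 1.05, adjusted p = 0.0145) and Serpinb9 4.10-fold (2.04, SE 0.23, adjusted p = 0.000143), 2 of 8 genes where 16.2% of all genes were called. Fitted to the double-negative arrays alone, the Gzmb difference did not pass (adjusted p = 0.161) and that of Gzmc did (1.15, adjusted p = 0.0227). The 2 replicates differed widely in how far Gzmb moved. Replicate 1 alone gave 1.28 for Gzmb and replicate 2 alone 7.60. For Gzma the same values were -0.39 and 5.69, and its mean difference of 2.65 did not pass (adjusted p = 0.104). Without fresh double-negative replicate 2 the Gzmb difference was 2.56 (adjusted p = 0.0995), without activated double-negative replicate 2 it was 3.16 (adjusted p = 0.129), and without fresh or activated replicate 1 it was 6.32 or 5.72 and passed. Gzma passed without fresh replicate 1 (4.03, adjusted p = 0.0343) or activated replicate 1 (4.32, adjusted p = 0.0102). Gzmc (1.15, adjusted p = 0.0988) and Fasl (0.85, adjusted p = 0.197) passed without the low-Foxp3 array, with adjusted p = 0.0211 and 0.0171, so that 4 of 8 genes were called where 17.2% of all genes were.

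In ICOS single-positive cells, the group that holds the low-Foxp3 array, only Gzmk passed on all arrays, 1 of 8 genes where 2.09% of all genes were called. It was 1.64-fold lower (-0.72 on the log2 scale, SE 0.15, adjusted p = 0.033), and without that array the difference was -0.69 (adjusted p = 0.12). Fitted to the ICOS single-positive arrays alone, the Gzmk difference did not pass (adjusted p = 0.113). The mean difference of Gzma was 4.12 (interval 1.92 to 6.31, adjusted p = 0.0665), and it passed with a filter for genes brighter than the median gene (adjusted p = 0.032). On replicate 1 alone the differences were 3.17 for Gzma, 3.20 for Gzmb, 1.76 for Gzmc, 1.63 for Prf1, 0.94 for Serpinb9 and -0.10 for Fasl. On replicate 2 alone the differences were 5.06 for Gzma, 1.36 for Gzmb, -0.01 for Gzmc, 2.35 for Prf1, 0.26 for Serpinb9 and 1.31 for Fasl. Without the low-Foxp3 array limma called 0 of 8 genes here, where 1.62% of all genes were called. On all arrays 4 of 8 had an unadjusted p below 0.05. The fit without it rests on a lone activated array that is assumed to vary like the other groups.

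**Figure D2:**
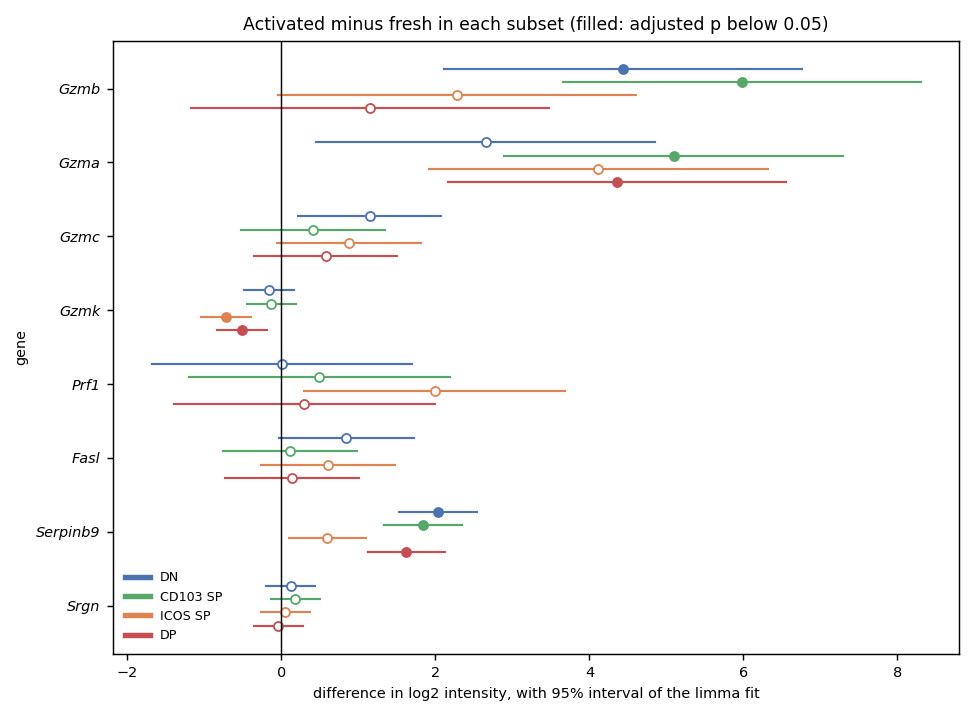
Difference in log2 intensity between activated and fresh arrays (horizontal axis) for the 8 genes (vertical axis) in each subset, named as DN, CD103 SP, ICOS SP and DP, with 95% intervals of the limma fit. Filled points have an adjusted p below 0.05; Gzmb runs from 5.98 in CD103 single-positive to 1.15 in double-positive cells, and the points of Srgn lie close to 0.

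Markers of other cell types were read beside these rises. Over all genes limma called 14.4% higher and 16.8% lower on activation. In bulk RNA, fewer cells of a type and less RNA per cell cannot be told apart. The mean of 9 NK markers was 5.21 to 5.62 on fresh arrays and 4.78 to 5.18 on the activated arrays other than the low-Foxp3 one. Of the 9, 3 fell (Klrb1c, Xcl1 and Tyrobp). The NK receptor genes Ncr1, Klrb1c, Klra8, Klre1 and Klri2 were at most 5.11 on those 7 activated arrays. Cd160 reached 7.31 and Xcl1 7.34 there, both on double-negative replicate 1. Klrk1 was 6.67 on activated double-negative replicate 2, the array with the highest Gzma and Gzmb, against at most 6.22 on fresh arrays and 5.14 on the other 6 activated ones. Of the CD8 chains, Cd8a was lower on activated arrays (-0.55, adjusted p = 3.51e-05) and Cd8b1 lay between 8.40 and 8.96 on all 16. Cd8a was 7.78 and 8.05 in fresh CD103 single-positive cells and 6.10 to 6.56 in the other fresh subsets. On activated arrays it was 5.87 to 6.43.

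Of 9 myeloid and dendritic cell markers 1 rose, Cd68 (0.85, adjusted p = 0.0377), and 3 fell, with Lyz2 lower by the most (-2.26, adjusted p = 0.000765). Their mean was 5.60 to 6.32 on fresh and 5.57 to 5.91 on the 7 activated arrays. Of 6 B cell markers 4 fell and 1 rose. That 1 was Ebf1, a transcription factor gene of early B cells, at 4.82 to 6.01 on fresh arrays and 7.01 to 9.51 on the 7 activated arrays (2.82, adjusted p = 2.31e-05). On the low-Foxp3 array Ebf1 was 5.47, within its fresh range, while Gzma was 10.19 and Gzmb 10.58 there. The mast cell and basophil markers, 6 measured, had a mean of 4.33 to 4.77 on fresh and 4.34 to 4.48 on activated arrays. Of 6 conventional CD4 T cell activation genes 1 rose, Il21 (2.0, adjusted p = 0.00333), and 2 fell, Tnf (-0.41) and Cd40lg (-0.60). Of the others Ifng differed by 0.81 (adjusted p = 0.145), Lta by -0.95 (adjusted p = 0.0521) and Il2 by -0.18 (adjusted p = 0.677). The part of other cells in the rises was not tested.

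The fresh subsets were compared by ICOS and by CD103. With ICOS, averaged over CD103, Gzmb and Gzmk were higher, 2 of 8 genes where 6.53% of all genes were called. The level of Gzmb was 12.2-fold higher (3.61 on the log2 scale, SE 0.75, adjusted p = 0.0148) and Gzmk 1.59-fold (0.67, SE 0.10, adjusted p = 0.00289). The Gzmk difference was 0.70 in the replicate 1 arrays and 0.64 in the replicate 2 arrays. The size for Gzmb rested on the double-negative arrays: it was 4.55 without replicate 1 and 2.67 without replicate 2, and the call was lost without either fresh ICOS single-positive array (adjusted p = 0.0509 and 0.0577) or double-positive replicate 2 (0.0521). Without the low-Foxp3 array Serpinb9 (-0.57, adjusted p = 0.05) and Srgn (0.37, adjusted p = 0.0388) passed as well, where 7.81% of all genes were called. On all arrays these had adjusted p = 0.0661 and 0.0564. The median of the 8 differences was 0.22, against -0.05 over all genes.

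Within fresh cells Gzmk was 1.79-fold higher in ICOS single-positive than in double-negative cells (0.84, SE 0.15, adjusted p = 0.00931), the only 1 of 8 genes called, where 3.32% of all genes were called. That call was lost without double-negative replicate 1 (adjusted p = 0.0774) or either ICOS single-positive array (0.093 and 0.0543). Gzmb was 19.7-fold higher in double-positive than in double-negative cells (4.30, SE 1.05, adjusted p = 0.048), again 1 of 8 genes, where 3.97% of all genes were called. This call was kept in only 5 of 16 fits that left out 1 array, with differences from 2.42 without double-negative replicate 2 to 6.18 without replicate 1. In a fit to the fresh double-positive and double-negative arrays alone, that Gzmb difference did not pass (adjusted p = 0.196). The difference of Gzmb between ICOS single-positive and double-negative cells was 2.04 and did not pass (interval -0.29 to 4.36, adjusted p = 0.406).

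Markers of activated conventional CD4 T cells were also read in fresh cells. The mean of the 6 was 8.95 and 8.97 on the ICOS single-positive arrays and 7.20 to 7.49 on the other 6 fresh ones. In ICOS single-positive against double-negative cells 3 of 6 were higher in limma's test, where 3.32% of all genes were called in either direction. Il21 was 8.94 and 9.27 against 4.75 and 4.65 (4.40, adjusted p = 0.0152), Il2 8.35 and 8.67 against 6.35 and 6.36 (2.16, adjusted p = 0.0482) and Cd40lg was higher by 0.82 (adjusted p = 0.024). Ifng was 8.37 and 8.42 against 6.80 and 6.73 and did not pass (adjusted p = 0.35). Tnf was 10.50 and 10.16 against 10.11 and 9.69, and Lta 8.63 and 8.31 against 8.88 and 8.57. Of 9 NK markers Klrb1c was higher (0.90, adjusted p = 0.0234). Ncr1 (4.90 and 4.80 against 5.66 and 5.23) and Tyrobp (6.44 and 6.19 against 7.12 and 6.74) lay lower, and Klrk1 and Xcl1 higher. The mean of the 9 was 5.33 and 5.40 against 5.41 and 5.22. With ICOS over both CD103 classes the Treg marker Gpr83 was lower (-1.91, adjusted p = 0.0148). The mean of all 11 Treg markers was 11.10 and 10.90 in ICOS single-positive against 11.15 and 10.80 in double-negative cells. It was 11.71 and 11.55 in double-positive against 11.80 and 11.73 in CD103 single-positive cells. Foxp3 was 12.34 and 11.99 in ICOS single-positive against 12.56 and 12.16 in double-negative cells. The part of other cells in the Gzmk and Gzmb differences was not tested.

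Prf1 ran the other way in fresh cells. It differed by -0.75 with ICOS (interval -1.94 to 0.45, adjusted p = 0.525) and by -1.58 between ICOS single-positive and double-negative cells (adjusted p = 0.37). The fit over all arrays includes the wide activated pairs of Prf1 in its spread. Fitted to the fresh arrays alone, the ICOS difference passed (adjusted p = 0.00487), as did those of Gzmc (0.65, adjusted p = 0.0212) and Srgn (0.37, adjusted p = 0.0146), where 8.81% of all genes were called. The Gzmc mean was 7.04 in double-positive against 5.87 in CD103 single-positive cells, but 6.10 in ICOS single-positive against 5.97 in double-negative cells. The Prf1 difference of ICOS single-positive from double-negative cells, fitted to those 4 arrays, passed too (adjusted p = 0.00919), where 4.38% of all genes were called. The interaction of CD103 and ICOS for Prf1 passed in the fit to fresh arrays (1.66, adjusted p = 0.0345), where 0.311% of all genes were called. The CD103-positive subsets were at 7.14 to 7.32 with or without ICOS. Its replicate 1 and replicate 2 differences with ICOS were -0.81 and -0.68.

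No difference with CD103 passed for any of the 8 genes in fresh cells. Limma called 0 of 8, also at an unadjusted p below 0.05, where 0.206% of all genes were called, and the interval of Gzmb was -0.95 to 2.34. CD103 single-positive against double-negative cells gave 0 of 8 too, where 0.0853% of all genes were called. For the interaction of CD103 and ICOS limma called 0 of 8, with 1 at an unadjusted p below 0.05, where 0.0451% of all genes were called. The interaction of Gzmb was 3.14 (interval -0.14 to 6.43), and it was 5.01 in the replicate 1 and 1.28 in the replicate 2 arrays.

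After activation Serpinb9 was the 1 of 8 genes that differed with ICOS, where 6.94% of all genes were called. It was 2.63-fold lower in cells sorted as ICOS-positive before the assay (-1.40, SE 0.16, adjusted p = 0.00238). The difference was -1.37 in the replicate 1 and -1.42 in the replicate 2 arrays, and -1.28 without the low-Foxp3 array. On activated arrays Icos itself was 11.63 to 12.12 in the ICOS-negative subsets. In the ICOS-positive subsets it was 12.87 to 12.91, with 11.25 on the low-Foxp3 array. Gzmb, which was higher with ICOS in fresh cells, differed by 0.12 (interval -1.53 to 1.76, adjusted p = 0.965). Gzmc differed by 0.59 (adjusted p = 0.321) and, without the low-Foxp3 array, by 0.97 (adjusted p = 0.0353), with 6.65% of all genes called.

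Limma called 0 of 8 genes for CD103 in activated cells, with 2 at an unadjusted p below 0.05 and 0.717% of all genes called. These were Serpinb9 (0.42, adjusted p = 0.327) and Fasl (-0.89, adjusted p = 0.209). The interval of Gzmb was -0.74 to 2.54. The Fasl difference was -1.29 (adjusted p = 0.00142) without ICOS single-positive replicate 1 and -0.49 (adjusted p = 0.394) without the low-Foxp3 array. For double-positive against double-negative cells it called 0 of 8, with 3 at an unadjusted p below 0.05 and 0.0451% of all genes called. For the interaction it called 0 of 8, with 1 at an unadjusted p below 0.05 and 0.015% of all genes called.

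**Figure D3:**
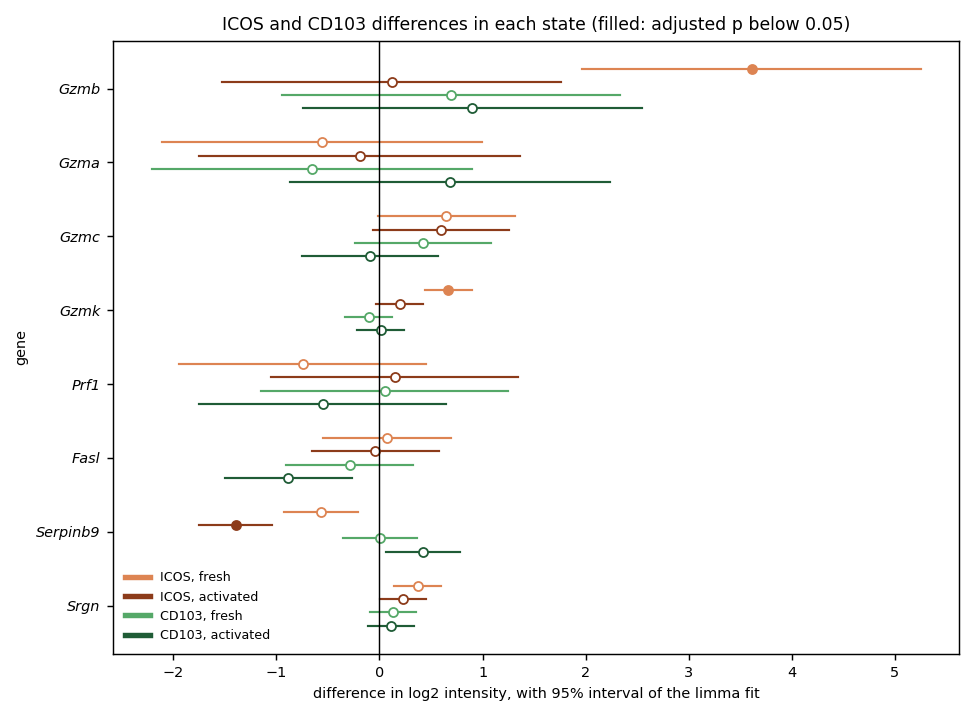
Difference in log2 intensity with ICOS (averaged over CD103) and with CD103 (averaged over ICOS), horizontal axis, for the 8 genes (vertical axis) in fresh and in activated cells, with 95% intervals of the limma fit. Filled points have an adjusted p below 0.05: Gzmb (3.61) and Gzmk (0.67) with ICOS in fresh cells and Serpinb9 (-1.40) with ICOS in activated cells.

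The change of these differences with activation was tested directly. For ICOS limma called 0 of 8 genes, with 3 at an unadjusted p below 0.05, where 6.72% of all genes were called. The ICOS difference of Gzmb was 3.49 smaller in activated than in fresh cells (log2 -3.49, interval -5.81 to -1.17, adjusted p = 0.0788). Single arrays moved it across the threshold: it was -4.43 without fresh double-negative replicate 1 (adjusted p = 0.0101) and -4.13 without activated double-negative replicate 1 (adjusted p = 0.0389). That of Serpinb9 was -0.83 (adjusted p = 0.0567), with -0.84 in the replicate 1 and -0.82 in the replicate 2 arrays, and it passed without fresh CD103 single-positive replicate 2 (adjusted p = 0.02), activated ICOS single-positive replicate 1 (0.0312) or activated double-negative replicate 2 (0.0407). That of Gzmk was -0.47 (adjusted p = 0.0888), and it passed without fresh CD103 single-positive replicate 1 (adjusted p = 0.0289). On all 16 arrays Gzmb and Serpinb9 passed with the filter for genes brighter than the median gene (adjusted p = 0.0384 each), and Gzmk with quantile normalization applied again (-0.57, adjusted p = 0.0135). Serpinb9 passed too when limma's fit held a term for the replicate number (adjusted p = 0.0401). For CD103 limma called 0 of 8, also at an unadjusted p below 0.05, where 0.296% of all genes were called.

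Replicate agreement differed between the 8 genes and between the groups, and it limits the tests above. In fresh double-negative cells the 2 arrays differed by 3.76 for Gzmb, the largest difference of all 19938 genes in that pair, and by 2.75 for Gzma, the third largest. The median gene differed by 0.15 there. The other 6 genes differed by at most 0.24 in that pair. Replicate 1, the higher array, also had more Cpa3, a mast cell protease (5.78 against 4.37), and Lyz2, a myeloid lysozyme (8.15 against 6.17). Of 6 mast cell and basophil markers 3 were higher on it, with Mcpt8, Mcpt4, Cma1, Ms4a2 and Fcer1a at 5.01 or below on all 16 arrays. Of 9 myeloid markers 8 were higher on it and of 9 NK markers 7, with list means of 6.05 against 5.60 and 5.41 against 5.22. All 11 Treg markers were higher on it as well. In fresh CD103 single-positive cells replicate 1 was the higher array for 9 of 9 myeloid and 9 of 9 NK markers. Gzmb differed by 0.02 in that pair. In fresh ICOS single-positive cells replicate 1 was higher for 8 of 9 and 5 of 9, with Gzmb differing by 0.18. In fresh double-positive cells it was higher for 7 of 9 each, with Gzmb differing by 0.19. The part of other cells in the Gzma and Gzmb values of fresh double-negative replicate 1 was not tested.

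In activated double-negative cells the order was turned. Replicate 2 was the higher array by 3.33 for Gzma, 2.96 for Prf1 and 2.56 for Gzmb, ranks 10, 19 and 33 among all genes by size of difference. Of 6 conventional CD4 T cell markers 2 were higher on replicate 2, Ifng (10.16 against 6.83) and Il21 (9.60 against 6.21), and 4 were lower, Lta among them (6.59 against 8.62), with list means of 8.30 against 7.68. Of 9 NK markers 3 were higher on it, Klrk1 among them (6.67 against 4.98), and 6 were lower, with Xcl1 at 5.93 against 7.34 and Cd160 at 6.41 against 7.31, and list means of 5.09 against 5.18. Ebf1 was 9.51 against 7.64, while 5 of 6 B cell markers and 5 of 9 myeloid markers were lower on it. Foxp3 was 11.69 against 12.30. Of 11 Treg markers 7 were lower on it, 3 of them by over 1 (Ikzf2, Ikzf4 and Nrp1), and its Treg mean was 10.66 against 11.04. The part of other cells in these values was not tested. In activated CD103 single-positive cells Prf1 differed by 1.56, rank 36, again with replicate 2 higher.

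The low-Foxp3 array differed from its partner by over 1 in 5 of the 8 genes, where 3.44% of all genes did. Gzmb was lower on it by 1.66 and Gzmc by 1.48, while Fasl was higher by 1.60, Gzma by 1.47 and Prf1 by 1.11. Serpinb9 was lower by 0.45 and Srgn by 0.32, and Gzmk differed by 0.05. The mean of 9 NK markers was 5.84 on it against 5.0 on its partner, and 7 of 9 were higher. Of these Klrk1 (8.36 against 5.01), Cd160 (8.90 against 6.31) and Xcl1 (8.06 against 6.62) were higher by over 1. Of the NK receptor genes, Ncr1 (4.74) and Klra8 (3.80) lay below the other 7 activated arrays and Klre1 (4.01) within their range. Klrb1c (4.22) and Klri2 (4.16) lay above them, at 3.89 to 4.17 and 3.78 to 4.0. Of 9 myeloid markers 8 were higher on the low-Foxp3 array, Lyz2 among them (7.42 against 6.26), and Cd68 was lower (7.56 against 9.11), with list means of 6.06 against 5.87. Of 6 conventional CD4 T cell markers 2 were higher, Il21 (9.23 against 7.59) and Cd40lg (8.29 against 8.20), and Lta was lower by over 1 (6.67 against 8.14). The B cell marker Ebf1 was 5.47 against 7.01. Cd8a was 6.11 against 5.95 and Cd8b1 8.62 against 8.89. The part of other cells in the granzyme, perforin and Fasl values of this array was not tested.

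Over all 8 genes 2 of 32 fresh pairs of arrays differed by more than 1, against 9 of 32 activated pairs, or 4 of 24 without the ICOS single-positive pair. In each group between 0.12% and 3.44% of all genes differed that far. Gzma, Gzmb and Prf1 did so in 3 groups each, Gzmc and Fasl in 1, and Gzmk, Serpinb9 and Srgn in 0. The largest replicate differences were 0.43 for Gzmk, 0.66 for Serpinb9 and 0.42 for Srgn. Serpinb9 replicates differed by more than the median gene in 5 of 8 groups.

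**Figure D4:**
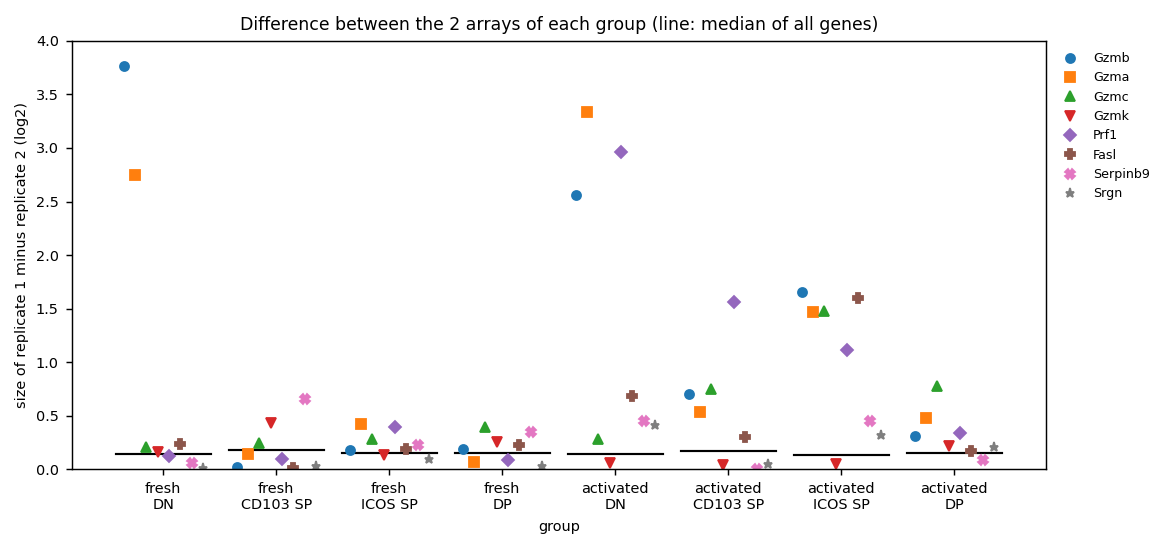
Size of the difference between replicate 1 and replicate 2 (vertical axis, log2) of each of the 8 genes in each of the 8 groups (horizontal axis), with a line at the median of all genes. Gzmb (3.76) and Gzma (2.75) stand out in fresh double-negative cells, and Gzma, Prf1 and Gzmb in activated double-negative cells.

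Genes of the granule pathway beyond the 8 were read from a list of 46, of which 43 were analysed here. It covers other granzymes, serpins, granule proteins, transport and release, death receptors and transcription factors. On activation over the 4 subsets 12 of 43 rose and 5 fell, next to 14.4% and 16.8% of all genes, with a median difference of 0.09. Sytl3, a Rab27 effector of vesicle transport, rose by 2.14 (adjusted p = 0.000179) and its relative Sytl2 fell by 1.83 (adjusted p = 0.000253). Tbx21, which encodes T-bet, a transcription factor of cytotoxic and type 1 cells, rose by 1.85 (adjusted p = 0.00046), and Rnf19b, a ubiquitin ligase of cytolytic granules, by 1.45 (adjusted p = 6.11e-06). Limma called 0 of 6 other granzymes, with 1 (Gzmg) at an unadjusted p below 0.05, and Gzmd, Gzme, Gzmf, Gzmg and Gzmn stayed between 4.07 and 5.25 on all arrays. These genes are close in sequence to Gzmb and Gzmc, and cross-hybridisation between them was not tested. Of 6 serpins 2 rose, and of 7 death receptor genes 1 rose and 3 fell.

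Within subsets, 10 of the 43 rose and 1 fell in double-negative cells, next to 8.65% and 7.59% of all genes. In CD103 single-positive cells 8 rose and 4 fell, next to 10.2% and 10%, and in double-positive cells 4 rose and 3 fell, next to 5.36% and 8.7%. Tbx21 (2.94), Sytl3 (2.43), Serpinb6b (2.33) and Rnf19b (1.76) led in double-negative cells, with Serpinb6b encoding another granule-protease inhibitor. In CD103 single-positive cells Sytl3 rose by 3.01, Sytl2 fell by 1.96 and Tbx21 rose by 1.93. There the cathepsin gene Ctsw, which is expressed in cytotoxic cells, fell by 2.69. In double-positive cells Sytl3 rose by 2.58, Sytl2 fell by 2.37, and Rnf19b and Serpinb6b rose by 1.31 and 1.10. In ICOS single-positive cells Bid, a substrate of granzyme B, fell by 1.05 (adjusted p = 0.0487), the only 1 of 43, which did not pass without the low-Foxp3 array (-0.70, adjusted p = 0.216).

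With ICOS in fresh cells 4 of 43 rose and 1 fell, next to 4.1% and 2.43% of all genes. Prdm1, which encodes the repressor Blimp-1, was 10.9-fold higher (3.44 on the log2 scale, adjusted p = 0.014). Stx11, a syntaxin needed for granule release, was higher by 1.50 (adjusted p = 0.0127), the lysosomal membrane gene Lamp2 by 0.99 (adjusted p = 0.000244) and the death receptor gene Tnfrsf10b by 0.58 (adjusted p = 0.021). Prdm1 (4.06), Stx11 (1.91) and Lamp2 (1.25) were also higher in double-positive than in double-negative cells, and Stx11 (1.87) and Lamp2 (0.84) in ICOS single-positive than in double-negative cells. With CD103 in fresh cells limma called 0 of 43, with 5 at an unadjusted p below 0.05.

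In activated cells ICOS-positive subsets had more Ctsh, a lysosomal cathepsin (1.21, adjusted p = 0.00994), and Tnfsf10, the gene of the death ligand TRAIL (0.72, adjusted p = 0.0498), and less Serpinb6b (-0.98, adjusted p = 0.00639) and Tnfrsf10b, the receptor of TRAIL (-0.56, adjusted p = 0.0284). These are 2 of 43 higher and 2 lower, next to 1.94% and 5% of all genes. Without the low-Foxp3 array Tnfsf10 (adjusted p = 0.0622) and Tnfrsf10b (0.06) did not pass. With CD103 in activated cells Lyst, a regulator of granule size, was lower by 1.48 (adjusted p = 0.0363), the only 1 of 43.

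Across the 16 arrays the genes most like each of the 8 were found by Pearson's r of log2 level among 18155 genes. The arrays share 2 states and 8 groups, and the state alone raises r, so the values are descriptions. Most like Gzmb were Mtmr9 (r = 0.93 over 16 arrays, 0.95 over the 8 fresh and 0.57 over the 8 activated), Lgals1 (0.93, 0.88 and 0.74) and Atf6 (0.93, 0.86 and 0.96). For Serpinb9 they were Lonp1 (0.95), Tulp3 (0.95) and Elp6 (0.95), and for Gzma Srebf2 (0.94), Ndufv3 (0.93) and Kcnk7 (0.93). Over fresh arrays alone Gzma and Ndufv3 had r = -0.0012. For Gzmc they were Slc37a2 (0.91), Vamp3 (0.90) and Rhoc (0.90), and for Gzmk Tox2 (0.92), Tmprss13 (0.92) and Cebpa (0.92).

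Most like Prf1 were Clic5 (r = 0.83), Gzme (0.83) and Klrc1 (0.82), with 0.93, 0.90 and 0.92 over activated arrays and 0.59, 0.58 and 0.09 over fresh ones. For Fasl they were Klrd1 (0.94), Slc15a1 (0.94) and Mctp2 (0.93), which fell to 0.89, 0.87 and 0.86 without the low-Foxp3 array. Klrc1 and Klrd1 encode the receptor chains NKG2A and CD94. For Srgn they were Glrx (0.91), Ccr2 (0.89) and Prdm1 (0.88), which were at 0.94, 0.99 and 0.98 over the fresh arrays alone.

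Among the 8 themselves, Gzmb went with Srgn and Gzmc over fresh arrays (r = 0.85 each, n = 8) and against Serpinb9 (-0.77). Over the 8 activated arrays Gzmb and Srgn had r = 0.75, Gzma and Prf1 0.74, and Gzmb and Gzma 0.57, or 0.83 without the low-Foxp3 array. Gzmb and Prf1 had r = -0.29 over fresh and 0.35 over activated arrays, the latter 0.76 without that array. Gzmk and Serpinb9 went against each other in both states (-0.71 and -0.76). Each r over 8 arrays rests on 4 groups of 2, and without the low-Foxp3 array on 7 arrays, 1 of them alone in its group, so the points are not independent.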

How the data were processed

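Whole-transcript arrays measured RNA of 16 samples. The deposited values are log2 intensities made by the authors with RMA (affy), per the submitters' processing notes, with the versions not given in the sources used here. Of 35556 probe sets 21789 had 1 symbol, 1621 several and 12146 none; the brightest probe set of a gene over the 16 arrays was used, giving 19938 genes. Each of the 8 genes had 1 probe set. Limma 3.58.1 in R 4.3.3 fitted 8 group means to all 16 arrays (8 residual degrees of freedom, prior 2.90) and 17 comparisons, with Benjamini-Hochberg adjustment over all genes and no filter. It was tested on simulated data with 200 changed genes. Replicates are labelled biological; p-values measure the spread between these samples. The genes and lists were chosen with earlier results of these data known. All 8 genes are named, up to 4 called pathway genes per comparison with the widest difference, and the 3 genes most like each of the 8. Alternatives were quantile normalization, a brightness filter, the mean of probe sets, a replicate block, trend and robust estimation, fewer arrays and each array left out.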

Additional observations from a re-analysis of the deposited data

Results flagged for a closer look

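For 4 of 43 genes of the granule pathway list the ICOS difference differed between activated and fresh cells in limma's test of that difference. Of all genes 6.72% were called in this test. Serpinb6b, a serpin gene, had a change of -1.10 (adjusted p = 0.0127), and -1.22 without the low-Foxp3 array. Tnfrsf10b, a TRAIL receptor gene, had -1.14 (adjusted p = 0.00421), and -1.0 without that array (adjusted p = 0.00459). Lamp2, a lysosomal membrane gene, had -0.65 (adjusted p = 0.0264), and Calr, the calreticulin gene, -0.53 (adjusted p = 0.0456); neither passed without that array (adjusted p = 0.0557 and 0.0819). None of the 8 granzyme, perforin and granule genes passed this test in the main fit of 8 group means, without a replicate block, to all 16 arrays and all genes. In that fit 3 had an unadjusted p below 0.05 in limma. Of these, Gzmb and Serpinb9 passed on all 16 arrays with a filter for genes brighter than the median gene (adjusted p = 0.0384 each), and Gzmk with quantile normalization applied again (adjusted p = 0.0135). Serpinb9 passed with the replicate block too (adjusted p = 0.0401).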

How the results depend on the processing

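The 8 genes gave 19 calls in 136 gene comparisons with all 16 arrays: 5 each for Gzmb, Gzmk and Serpinb9, 3 for Gzma and 1 for Gzmc, and 0 for Prf1, Srgn and Fasl. Of these 19, the mean of all probe sets of a gene and the replicate block kept 19, quantile normalization applied again kept 18, limma's trend and robust options kept 18, and a fit to only the arrays of the groups compared kept 10 of the 14 it could test. The 4 calls lost in that fit were Gzmb in fresh double-positive against double-negative cells and on activation of double-negative cells, and Gzmk on activation of ICOS single-positive and double-positive cells. That fit also added 8 calls. A filter for genes brighter than the median gene kept 13 of the 13 calls on genes it left in. Leaving out 1 array kept between 14 and 18. No called difference changed sign in any of these fits. Each group had 2 arrays, and the values include background.

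Counts over all genes moved by over 1.5 times as follows, and the cause was not tested. Quantile normalization gave 17 genes for the fresh interaction, 0 for the activated interaction (704 at an unadjusted p below 0.05 in limma), 14 for activated double-positive against double-negative cells and 133 for the change of the CD103 difference. The brightness filter, which tests fewer genes, gave 9 for fresh CD103, 1 for the fresh interaction, 4 for fresh CD103 single-positive against double-negative cells, 1 for the activated interaction and 5 for activated double-positive against double-negative cells. The mean of probe sets gave 17 for the fresh interaction. Trend and robust gave 28 for the fresh interaction and 21 for activated double-positive against double-negative cells. With only the arrays of the groups compared, limma called 268 genes for fresh CD103, 62 for the fresh interaction, 443 for activated ICOS and 1962 for activation of double-negative cells. It called 0 for fresh CD103 single-positive against double-negative cells, activated CD103, the activated interaction and activation of ICOS single-positive cells, with 924, 1980, 373 and 2522 at an unadjusted p below 0.05.

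The replicate numbers were not treated as pairing the samples, because the labels do not tie them to experiments. Over 28 pairs of groups, the correlation of same-numbered deviations ran from -0.016 to 0.75 (median 0.23), and 27 were above 0.1. Same-numbered arrays thus shared part of their deviations, and the main fit leaves that part in its spread. With the replicate block, calls rose to 2275 for fresh ICOS, 143 for fresh CD103, 71 for the fresh interaction, 1412 for fresh double-positive, 51 for fresh CD103 single-positive and 1401 for fresh ICOS single-positive against double-negative cells. The block gave 2734 for activated ICOS, 519 for activated CD103, 0 for the activated interaction (963 at an unadjusted p below 0.05 in limma), 240 for activated double-positive against double-negative cells, 1064 and 4412 for activation of ICOS single-positive and double-positive cells, and 2638 and 370 for the changes of the ICOS and CD103 differences. Among the 8 genes the block kept all 19 calls and added 6: Fasl on activation (0.42, adjusted p = 0.0487), Gzma on activation of ICOS single-positive cells (4.12, 0.0409), Serpinb9 (-0.57, 0.0498) and Srgn (0.37, 0.0396) with fresh ICOS, Gzmk in fresh double-positive against double-negative cells (0.56, 0.039) and the change of the ICOS difference of Serpinb9 (-0.83, 0.0401).

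When 1 array at a time was left out, the number of genes called ran from 771 to 1558 with ICOS in fresh cells, 4 to 158 with CD103 in fresh cells, 0 to 30 for the interaction in fresh cells, 295 to 1087 for fresh double-positive against double-negative cells and 5 to 74 for fresh CD103 single-positive against double-negative cells. The number ran from 230 to 930 for fresh ICOS single-positive against double-negative cells, 509 to 1449 with ICOS in activated cells, 23 to 942 with CD103 in activated cells, 0 to 201 for the interaction in activated cells and 4 to 337 for activated double-positive against double-negative cells. In the remaining comparisons it ran from 2062 to 3437 for activation of double-negative cells, 91 to 636 for activation of ICOS single-positive cells, 1362 to 2948 for activation of double-positive cells, 815 to 1663 for the change of the ICOS difference and 8 to 366 for the change of the CD103 difference. Where a lowest count was 0, limma gave 749 to 1121 genes for the fresh and 377 to 1020 for the activated interaction at an unadjusted p below 0.05.

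Quantile normalization turned the sign of 7 uncalled differences, to -0.020 for Serpinb9 and -0.042 for Gzmk with CD103 (fresh and activated), -0.053 for Prf1 on activation of double-negative cells, and for Srgn to -0.13 (fresh interaction), -0.064 and 0.078 (activation of ICOS single-positive and double-positive cells) and 0.096 (change of the CD103 difference). Leaving out 1 array turned the sign of 44 differences that were uncalled on all arrays, with these log2 ranges. With ICOS in fresh cells Gzma ran from -1.25 to 0.13. With CD103 in fresh cells Gzma ran from -1.34 to 0.031, Gzmb from -0.25 to 1.63, Gzmk from -0.21 to 0.0037, Prf1 from -0.047 to 0.15 and Serpinb9 from -0.16 to 0.17. For the interaction in fresh cells Gzma ran from -0.089 to 2.66. For fresh double-positive against double-negative cells Gzma ran from -2.59 to 0.16. For fresh CD103 single-positive against double-negative cells Gzma ran from -2.67 to 0.075, Gzmb from -2.76 to 1.0, Gzmc from -0.22 to 0.031 and Gzmk from -0.15 to 0.28. For fresh ICOS single-positive against double-negative cells Gzma ran from -2.58 to 0.17 and Gzmc from -0.0065 to 0.28. With ICOS in activated cells Fasl ran from -0.44 to 0.36, Gzma from -1.03 to 0.64, Gzmb from -0.52 to 0.76 and Prf1 from -0.59 to 0.89. With CD103 in activated cells Gzma ran from -0.15 to 1.52, Gzmc from -0.46 to 0.28, Gzmk from -0.042 to 0.066 and Prf1 from -1.29 to 0.19. For the interaction in activated cells Fasl ran from -0.84 to 0.76, Gzma from -2.58 to 0.75, Gzmb from -0.81 to 1.75, Prf1 from -2.0 to 0.96 and Srgn from -0.31 to 0.11. For activated double-positive against double-negative cells Gzma ran from -1.17 to 2.16, Gzmb from -0.26 to 2.3 and Prf1 from -1.89 to 1.08. For activation of double-negative cells Prf1 ran from -1.47 to 1.49 and Srgn from -0.088 to 0.33. For activation of CD103 single-positive cells Fasl ran from -0.036 to 0.27, Gzmk from -0.35 to 0.088 and Prf1 from -0.28 to 1.27. For activation of ICOS single-positive cells Fasl ran from -0.20 to 1.4 and Srgn from -0.11 to 0.21. For activation of double-positive cells Srgn ran from -0.14 to 0.068. For the change of the ICOS difference Fasl ran from -0.51 to 0.29, Gzma from -0.47 to 1.2 and Gzmc from -0.43 to 0.32. For the change of the CD103 difference Gzmb ran from -0.73 to 1.15, Prf1 from -1.34 to 0.14 and Srgn from -0.12 to 0.089.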
